A study of Mus musculus with 64 samples.

Results

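The genes described here are the 49 protein-coding autosomal genes of the Wnt, Fgf and Bmp families, 19, 20 and 10 in number, out of 34328 genes with a region in the series, of which 20665 were protein-coding and autosomal. They were chosen by symbol alone, a family name followed by a number and, for Wnt and Bmp, sometimes the letter a or b. Bmp15, Fgf13 and Fgf16 fit the symbol rule but lie on X, and these 3 were left out. Most members code for secreted ligands. Fgf11, Fgf12 and Fgf14 code for homologous factors that stay inside the cell, and Bmp1 codes for a metalloprotease that processes procollagen, so the members are not all ligands.

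The chromatin was that of CD23+ B cells from the spleens of female F1 hybrid mice, whose mothers were C57BL/6 heterozygous for an Xist deletion and whose fathers were Cast, the strain of M. m. castaneus. The cells were either unstimulated (0 h) or had spent 12 or 24 h with 1 µM CpG, which is sensed by the receptor TLR9. The cross is a model of skewed X inactivation, and the labels do not give which animals carried the deletion. CUT&RUN, in which an antibody directs a nuclease to cut around its target, was done for H3K27me3, H2AK119Ub, H3K9me3, H3K27ac, Suz12 and Ring1B. Of 64 samples, 61 had a list of peaks on the Cast allele. The 3 IgG samples were not analysed here. For H3K27me3 there were 3, 3 and 4 libraries at 0, 12 and 24 h, and for H2AK119Ub 4, 3 and 5. H3K9me3 had 4 per time, and H3K27ac, Suz12 and Ring1B had 3 each. The labels call the replicates biological but do not tie the numbers of different times to 1 animal.

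Wnt, Fgf and Bmp proteins are signals that pattern the embryo and maintain stem cells in adult tissues. Wnts act through Frizzled receptors and β-catenin, Fgfs through receptor tyrosine kinases, and Bmps through serine/threonine kinase receptors and Smad proteins. Genes of this kind are textbook targets of the Polycomb complexes in cells that do not use them. Polycomb repressive complex 2, which contains Suz12, methylates histone H3 at lysine 27 to give H3K27me3. Polycomb repressive complex 1, which contains Ring1B, attaches ubiquitin to histone H2A to give H2AK119Ub. H3K9me3 marks another kind of silent chromatin, and H3K27ac marks active promoters and enhancers.

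Each gene was measured by how much of its region, the gene and 2 kb on each side, was under peaks in a library, in percent. Several regions also hold other coding genes, such as Sftpc in that of Bmp1, Nudt6 in that of Fgf2, Dmtn in that of Fgf17 and Oxct2a in that of Bmp8a. The regions of Wnt9b and Wnt3 overlap, so their values are not independent. Bmp8a and Bmp8b are related copies on chromosome 4, and whether reads of 1 were placed on the other was not tested.

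Members differed at their starts in how they were marked, and 6 promoters are printed to show this. They cover 250 bases before to 50 after the annotated start, in RefSeq coordinates of GRCm38.p6, the assembly also called mm10. Capitals mark CG dinucleotides, the sites of DNA methylation that are dense in CpG islands, and CG reads the same on both strands. Wnt1 is shown as 1 of 4 members, with Wnt11, Wnt16 and Fgf9, that had both Polycomb marks in every library. Fgf23 and Fgf6 are shown because these neighbours, 48.2 kb apart on chromosome 6, were marked in opposite ways. Fgf4 is shown for its late coverage, and Bmp4 and Bmp6 as the fully covered and the uncovered Bmp gene.
Wnt1: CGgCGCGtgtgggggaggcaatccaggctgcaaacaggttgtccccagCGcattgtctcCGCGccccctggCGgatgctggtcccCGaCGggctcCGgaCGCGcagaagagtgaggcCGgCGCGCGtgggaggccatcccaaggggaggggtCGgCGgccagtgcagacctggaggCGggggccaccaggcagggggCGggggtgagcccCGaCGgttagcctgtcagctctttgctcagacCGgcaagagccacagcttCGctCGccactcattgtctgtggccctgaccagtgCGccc
Fgf23: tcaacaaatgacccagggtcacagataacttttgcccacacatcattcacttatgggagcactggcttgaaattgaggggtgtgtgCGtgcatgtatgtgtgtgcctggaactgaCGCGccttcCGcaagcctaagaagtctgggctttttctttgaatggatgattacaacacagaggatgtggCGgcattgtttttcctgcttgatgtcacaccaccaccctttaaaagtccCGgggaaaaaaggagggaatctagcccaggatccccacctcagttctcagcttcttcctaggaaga
Fgf6: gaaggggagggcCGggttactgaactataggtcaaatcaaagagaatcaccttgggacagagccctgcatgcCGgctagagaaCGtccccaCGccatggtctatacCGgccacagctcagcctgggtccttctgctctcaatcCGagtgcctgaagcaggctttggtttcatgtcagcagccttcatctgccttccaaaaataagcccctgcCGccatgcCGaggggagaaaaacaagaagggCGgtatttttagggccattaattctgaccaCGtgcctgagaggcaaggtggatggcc
Fgf4: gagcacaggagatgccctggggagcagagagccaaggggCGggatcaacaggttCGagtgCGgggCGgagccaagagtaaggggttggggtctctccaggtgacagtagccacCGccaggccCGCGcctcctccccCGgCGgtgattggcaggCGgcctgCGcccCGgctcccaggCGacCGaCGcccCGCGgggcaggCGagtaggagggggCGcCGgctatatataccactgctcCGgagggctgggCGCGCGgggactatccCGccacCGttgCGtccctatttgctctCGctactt
Bmp4: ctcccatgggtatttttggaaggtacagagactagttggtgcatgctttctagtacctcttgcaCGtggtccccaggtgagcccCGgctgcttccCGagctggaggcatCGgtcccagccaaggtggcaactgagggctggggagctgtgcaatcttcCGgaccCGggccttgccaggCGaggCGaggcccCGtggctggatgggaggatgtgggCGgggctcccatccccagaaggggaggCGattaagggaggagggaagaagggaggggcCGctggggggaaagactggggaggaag
Bmp6: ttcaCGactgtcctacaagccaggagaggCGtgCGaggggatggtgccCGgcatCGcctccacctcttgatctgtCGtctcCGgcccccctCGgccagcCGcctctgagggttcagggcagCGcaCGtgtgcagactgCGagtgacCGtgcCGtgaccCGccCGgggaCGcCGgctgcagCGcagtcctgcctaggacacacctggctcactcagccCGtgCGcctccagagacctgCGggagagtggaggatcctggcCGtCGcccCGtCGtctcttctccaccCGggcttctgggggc

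The Wnt1 promoter (chr15:98789607-98789906, plus strand) holds 26 CG, and H3K27me3 covered the whole window in 2 of 3 unstimulated libraries and in 4 of 4 at 24 h. The Fgf23 promoter (chr6:127072652-127072951, plus strand) holds 6 CG, and its window was wholly covered by H3K27me3 in 1 of 3 unstimulated libraries and in 4 of 4 at 24 h. The Fgf6 promoter (chr6:127015292-127015591, plus strand) holds 10 CG, more than that of Fgf23, and no library of any antibody had a peak over it. The Fgf4 promoter (chr7:144861136-144861435, plus strand) holds 28 CG. H3K27me3 touched it in no library at 0 or 12 h and in 4 of 4 at 24 h, 2 of which covered it whole. The Bmp4 promoter (chr14:46390620-46390919, minus strand) holds 12 CG and was wholly under H3K27me3 in 4 of 4 libraries at 24 h. The Bmp6 promoter (chr13:38345466-38345765, plus strand) holds 27 CG and had no peak. The number of CG in these windows therefore did not follow the coverage within either pair. RefSeq promoters matched 36 of 49 members, and the members without an entry were Wnt5a, Wnt7b, Wnt8a, Wnt10a, Fgf1, Fgf8, Fgf15, Fgf17, Fgf20, Bmp1, Bmp2, Bmp3 and Bmp7. The median promoter held 20.5 CG among members and 14 among 16457 protein-coding autosomal genes, of which 95.0% held at least 1. Among members the number ran from 3 in Bmp10 to 58 in Wnt9a. Across the 36 members, the Spearman correlation of CG number with H3K27me3 within 2 kb of the start at 24 h was 0.198, against 0.0961 across the 16457 genes. At 0 h it was 0.0630 against 0.125, and at 12 h 0.291 against 0.0898. At 24 h it was 0.110 against 0.328 for H2AK119Ub, 0.368 against 0.356 for Suz12 and 0.0841 against 0.476 for Ring1B. Members thus lay above all genes in some of these and below in others. The genes share libraries, and this is a description only.

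The lists themselves grew with stimulation. The share of the autosomes under H3K27me3 peaks was 1.21% to 3.84% at 0 h, 3.29% to 5.35% at 12 h and 8.18% to 12.6% at 24 h. For H2AK119Ub it was 1.13% to 2.38%, 4.07% to 6.54% and 2.40% to 8.65%. H3K9me3 lists covered between 0.936% and 5.07% of the autosomes without stimulation and between 8.87% and 10.5% after 24 h, and H3K27ac lists 0.663% to 2.10% and 2.10% to 5.11%. Suz12 and Ring1B lists, which are cut at a set top share, covered between 1.99% and 4.11% at all times. Replicate 3 of H3K27me3 at 0 h (3.84%) and replicate 4 of H2AK119Ub at 24 h (2.40%) stood apart from their groups. The read depth is unknown, and the part of list length in the results below was not tested beyond the scaled values given with them, in which each percent was divided by the autosomal percent of its library. As a check of the labelled cell type, all 12 B cell markers had an H3K27ac peak, and their mean coverage was 54.2% at 0 h and 80.2% at 24 h. None of the 12 had an H3K27me3 peak, while H2AK119Ub rose in 2 of 4 tested, Cd37 and Pax5, against 31% of all genes tested. Mean H3K27me3 coverage of markers of other cell types at 0 and 24 h went from 5.82% to 26.7% over T cell markers (5 of 6 tested rose), from 8.73% to 42% over myeloid markers (6 of 7) and from 1.89% to 21.9% over stromal and erythroid markers (3 of 6). Of all genes tested for H3K27me3, 56.5% rose. After scaling, 2, 3 and 2 of these markers were higher, against 16% of all genes. H3K27ac over 10 T cell markers averaged 4.68% and 6.05%, and Cd3e, Cd4, Cd8a, Cd8b1 and Thy1 had none, while Cd3d averaged 34.4% and 41.6% and Lck 12.4% and 12.7%. It averaged 0.182% and 2.37% over myeloid markers and 4.11% and 8.44% over stromal and erythroid markers. Of the 11 stromal and erythroid markers 8 had no H3K27ac peak, while Pecam1 averaged 30.8% and 72.6% and Cdh5 14.4% and 20.2%. In bulk samples such as these, fewer cells of a type with a mark and less of the mark per cell cannot be told apart.

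H3K27me3 was the mark that covered the members most. Their mean coverage was 12.9%, 10.1% and 33.3% in the 3 libraries at 0 h, 26.0% to 33.2% at 12 h and 44.3% to 54.3% at 24 h. The means of these were 18.7% ± 12.7, 29.6% ± 3.60 and 48.2% ± 4.29 (SD, n = 3, 3 and 4). The 24 h libraries lay above all 0 h libraries, and replicate 3 at 0 h lay at the top of the 12 h range. Over all protein-coding autosomal genes the means were 4.42%, 7.59% and 14.5%. The Wnt genes averaged 22.9%, 35.3% and 57.6%, the Fgf genes 19.7%, 28.6% and 47.7% and the Bmp genes 9.01%, 20.5% and 31.6%. Divided by the autosomal coverage of each library, the member mean was 9.05 ± 1.45 times that coverage at 0 h, 7.12 ± 1.6 times at 12 h and 5.08 ± 0.520 times at 24 h. The percent thus went up with time while its ratio to the autosomes went down. The ratio was 10.9 at 0 h and 6.05 at 24 h for Wnt genes, 9.95 and 5.02 for Fgf genes and 3.82 and 3.34 for Bmp genes. A peak in every library was found in 12 members at 0 h, 30 at 12 h and 37 at 24 h, or 24.5%, 61.2% and 75.5% of them. The same shares among protein-coding autosomal genes were 7.18%, 19.1% and 30.7%.

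**Figure D1:**
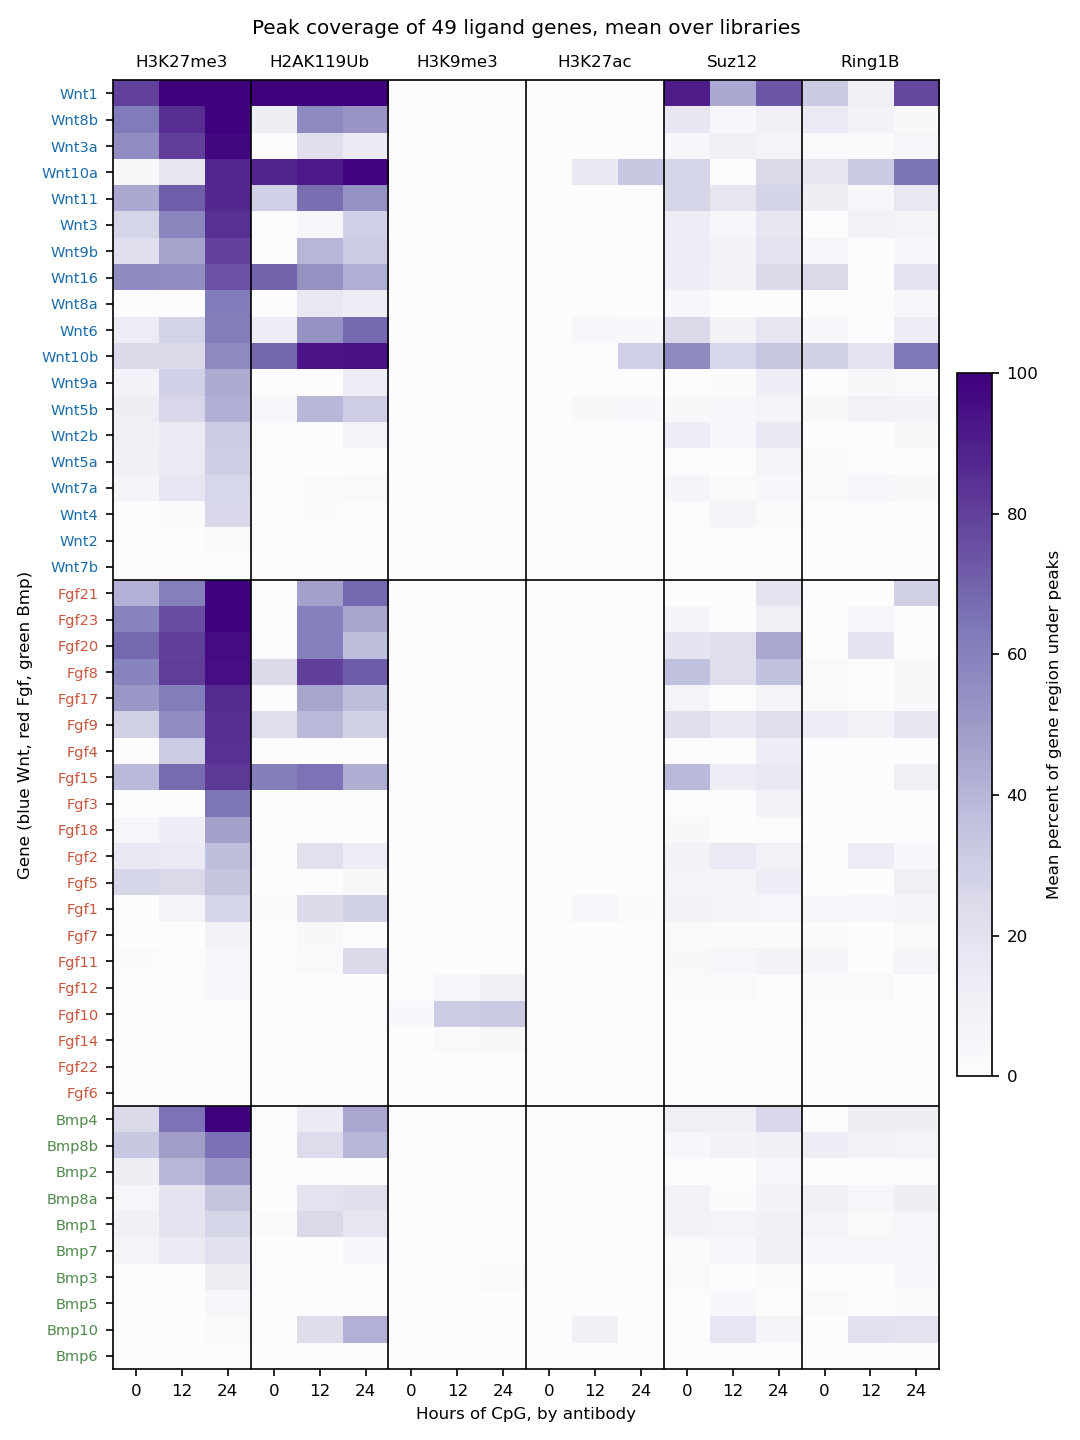
Mean percent of each member's region under peaks (colour), with the 49 genes as rows by family and the 6 antibodies at 0, 12 and 24 h as columns. H3K27me3 is strongest in the upper Wnt and Fgf rows at 24 h, H2AK119Ub is highest at Wnt1, Wnt10a and Wnt10b, H3K9me3 is seen at Fgf10, Fgf12 and Fgf14, and Fgf6, Fgf22, Bmp6 and Wnt7b stay empty.

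In the limma test over the 3 times, 40 members had H3K27me3 peaks in at least 3 libraries and were tested. Of these, 22 rose between 0 and 24 h at a Benjamini-Hochberg adjusted p under 0.05, none fell, and 18 did not pass. Among all 11914 genes tested 56.8% passed, 56.5% as higher and 0.00839% as lower, so the share of members is near the background. The median difference was 34.1 percentage points in the members tested and 28.9 in all genes tested. The difference was positive in 40 of 40 members, as in 99.3% of all genes. Fgf3, Fgf7, Bmp3 and Wnt8a had peaks at 24 h alone and so passed the filter through the group in which they were high. Every 24 h library exceeded every 0 h library in 25 of the 49 members, against 21.1% of protein-coding autosomal genes. After scaling by autosomal coverage, 3 members were higher (Wnt4, Wnt8a and Bmp3) and 1 was lower (Wnt8b, adjusted p = 0.0410), against 16% and 3.75% of all genes (19.8% passed). The scaled difference was positive in 20 members and negative in 20, with a median of 0.0483 against 0.926 in all genes. The 20 negative members included Wnt9b, Fgf9, Fgf23 and Bmp8b, which were called higher before scaling, and Wnt8b. This list is not complete. With all lists shortened to the length of the shortest H3K27me3 list, 2 members passed, Wnt9a and Fgf23, and the share of all genes was not counted there.

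Among the Wnt genes, 8 of 17 tested rose in H3K27me3. Wnt10a, a ligand of skin appendages and teeth that lies 6.70 kb from Wnt6 on chromosome 1, was covered 0%, 0% and 10.7% at 0 h. It was covered 53.5%, 0% and 0% at 12 h and 77.8%, 86.5%, 87.4% and 100% at 24 h. All 24 h libraries were high and only 1 library at 12 h was, and the difference of 24 from 0 h was 84.4 ± 13.1 percentage points (SE, limma adjusted p = 0.00181). Wnt8a, a ligand of early axis formation, was at 0% in every library at 0 and 12 h and at 43.8%, 36.2%, 100% and 70.0% at 24 h (difference 62.5 ± 13.2, limma adjusted p = 0.00553). Wnt4, which acts in kidney and ovary, was also at 0% at 0 h. It was at 2.07% to 3.19% at 12 h and at 15.7%, 23.7%, 22.8% and 40.4% at 24 h (25.6 ± 5.16, limma adjusted p = 0.00552). These 2 genes also passed after scaling, Wnt4 with a limma adjusted p of 0.00563.

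Wnt6, the neighbour of Wnt10a, was covered 0%, 0% and 40.4% at 0 h, 42.1%, 15.0% and 26.1% at 12 h and 64.3%, 52.0%, 61.6% and 70.0% at 24 h. Its groups at 0 and 24 h did not overlap (48.5 ± 11.4, SE, limma adjusted p = 0.0152). The adjoining Wnt9b and Wnt3 were covered together. Wnt9b, a kidney and face ligand, was at 16.8%, 0% and 48.1% at 0 h and at 82.4%, 75.2%, 79.9% and 78.7% at 24 h (57.4 ± 11.3, limma adjusted p = 0.00815). Wnt3, needed for gastrulation, was at 9.20%, 0% and 72.1% at 0 h and at 92.9%, 85.7%, 73.4% and 88.2% at 24 h (57.9 ± 16.6, limma adjusted p = 0.0389). In both genes replicate 3 held most of the coverage at 0 h. Wnt9a and Wnt5b also rose, with differences of 36.3 ± 11 (limma adjusted p = 0.0484) and 31.0 ± 8.01 (limma adjusted p = 0.0261).

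Several Wnt genes were well covered before stimulation. Wnt1, a midbrain ligand and the Wnt gene most covered at 0 h, was at 100%, 39.0% and 100% there and at 100% in every later library (limma adjusted p = 0.339). Wnt8b, a forebrain ligand, was at 50.8%, 37.1% and 100% at 0 h and at 100% in all 4 libraries at 24 h (limma adjusted p = 0.103). Wnt3a, which maintains axial progenitors, was at 22%, 57.7% and 85.7% at 0 h and at 95.7%, 95.9%, 100% and 100% at 24 h (limma adjusted p = 0.0776). These regions were near full cover at 24 h, and a percent cannot pass 100. Wnt16 and Wnt11 were at means of 55.9% and 44.4% at 0 h and 74.9% and 87.5% at 24 h, and neither passed (limma adjusted p = 0.208 and 0.116). Wnt10b was at 26.1%, 0% and 48.0% at 0 h and at 51.7%, 36.7%, 53.0% and 84.2% at 24 h, so its groups overlapped (limma adjusted p = 0.0849). Wnt2 had a peak in 1 library, replicate 4 at 24 h (6.18%), and Wnt7b had none.

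Among the Fgf genes, 9 of 16 tested rose. Fgf4, a ligand of the early embryo and limb bud, had the largest H3K27me3 difference of all members tested. It was at 0% in all 3 libraries at 0 h, at 40.8%, 0% and 51.9% at 12 h and at 89.0%, 75.5%, 74.8% and 100% at 24 h (84.9 ± 12.4, SE, limma adjusted p = 0.00184). A stretch of 5.88 kb (chr7:144861363-144867245), from the start of Fgf4 to the end of its region, was covered in all 4 libraries at 24 h. Its neighbours on chromosome 7 differed from it. Fgf3, 18 kb away and a ligand of inner ear development, was at 0% until 12 h and at 97.0%, 59.9%, 0% and 100% at 24 h (64.2 ± 20.5, limma adjusted p = 0.0312). Fgf15, 31.3 kb on the other side and the gut hormone that feeds back on bile acid synthesis, was at 32.8%, 0% and 82.5% at 0 h. It was at 60.7% to 79.8% at 12 h and 81.8% to 81.9% at 24 h (limma adjusted p = 0.103).

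The endocrine Fgfs, which need Klotho proteins as coreceptors, averaged 46.4% at 0 h and 93.8% at 24 h. Fgf23, the bone hormone of phosphate balance, was at 35.4%, 64.4% and 78.4% at 0 h, at 80.5%, 79.2% and 68.0% at 12 h and at 99.0% to 100% at 24 h (40.1 ± 10.4, SE, limma adjusted p = 0.0256). At 24 h a single stretch of 13.3 kb (chr6:127070902-127084156) covered Fgf23 and its flanks in all 4 libraries. Fgf6, its neighbour and a muscle ligand, had no peak of any antibody. Fgf21, the fasting hormone of the liver, was at 23.9%, 0% and 100% at 0 h and at 100% in every library at 24 h (limma adjusted p = 0.102). The 0 h libraries thus ranged from none to full cover.

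The Fgf9 subfamily, Fgf9 and Fgf20, averaged 48.5% at 0 h and 90.6% at 24 h. Fgf9, a ligand of lung and gonad development, was at 11%, 11.9% and 63.7% at 0 h and at 85.1%, 81.1%, 83.5% and 91.9% at 24 h (56.5 ± 13.7, SE, limma adjusted p = 0.0204). Fgf20 was the Fgf gene most covered at 0 h, at 33.7%, 81.9% and 88.8%, and stood at 91.1% to 100% at 24 h (limma adjusted p = 0.186). The Fgf8 subfamily averaged 38.2% and 76.4%. Of it, Fgf18, a ligand of cartilage and bone, was at 0%, 0% and 14.6% at 0 h, 0%, 11.3% and 25.3% at 12 h and 39.3%, 39.2%, 52.3% and 60.4% at 24 h (42.9 ± 8.24, limma adjusted p = 0.00507). Fgf8, the organiser signal of limb and midbrain, was at 76.2%, 0% and 100% at 0 h and 89.8% to 100% at 24 h (limma adjusted p = 0.263). Fgf17 was at 34.3% to 68.8% and 69.9% to 100% (limma adjusted p = 0.0574).

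Fgf1 and Fgf2, the broadly expressed pair that lacks a classical secretion signal, both rose, by 27.3 ± 6.92 and 21.6 ± 6.29 percentage points (SE, limma adjusted p = 0.0203 and 0.0218). The Fgf7 subfamily of ligands from connective tissue was at 0% in every library until 12 h. At 24 h Fgf7 was at 10.7%, 11%, 0% and 11% (8.20 ± 2.46, limma adjusted p = 0.0252), while Fgf10 and Fgf22 stayed at 0%. The intracellular factors had little of their regions covered. Fgf12 went from a mean of 0.425% to 3.08% (2.65 ± 0.698, limma adjusted p = 0.0209) in a region of 599 kb, and Fgf14, in 707 kb, had no H3K27me3 peak. Within 2 kb of the Fgf12 start, however, mean H3K27me3 coverage was 0%, 27.2% and 100% at 0, 12 and 24 h.

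Of the Bmp genes, 5 of 7 tested rose. Bmp4, a ligand of mesoderm and many organs, was at 0%, 0% and 74.3% at 0 h, at 56.3%, 39.0% and 100% at 12 h and at 100% in all 4 libraries at 24 h (75.2 ± 19.9, SE, limma adjusted p = 0.0290). Bmp2, its close relative in bone formation, was at 0%, 0% and 35.1% at 0 h and at 52.7%, 47.5%, 52.8% and 52.6% at 24 h (39.7 ± 11.2, limma adjusted p = 0.0358). In both, replicates 1 and 2 were empty at 0 h and replicate 3 was not. Bmp8b, expressed in brown fat and germ cells, was the Bmp gene most covered at 0 h, at a mean of 32.6% ± 12.3 (SD, n = 3), and was at 62.8% to 68.8% at 24 h (32.9 ± 8.26, limma adjusted p = 0.0235). The related Bmp8a went from a mean of 5.05% to 33.7% (28.6 ± 6.20, limma adjusted p = 0.0126). Bmp3, which opposes other Bmps in bone, was at 0% until 12 h and at 9.46%, 9.94%, 17.0% and 7.92% at 24 h (11.1 ± 1.96, limma adjusted p = 0.00237). It also passed after scaling (limma adjusted p = 0.0135). Bmp7 and Bmp1 did not pass (limma adjusted p = 0.0645 and 0.0616), although their 24 h libraries lay above all their 0 h libraries. Bmp5 and Bmp10 had a peak only in replicate 4 at 24 h, and Bmp6 had none.

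**Figure D2:**
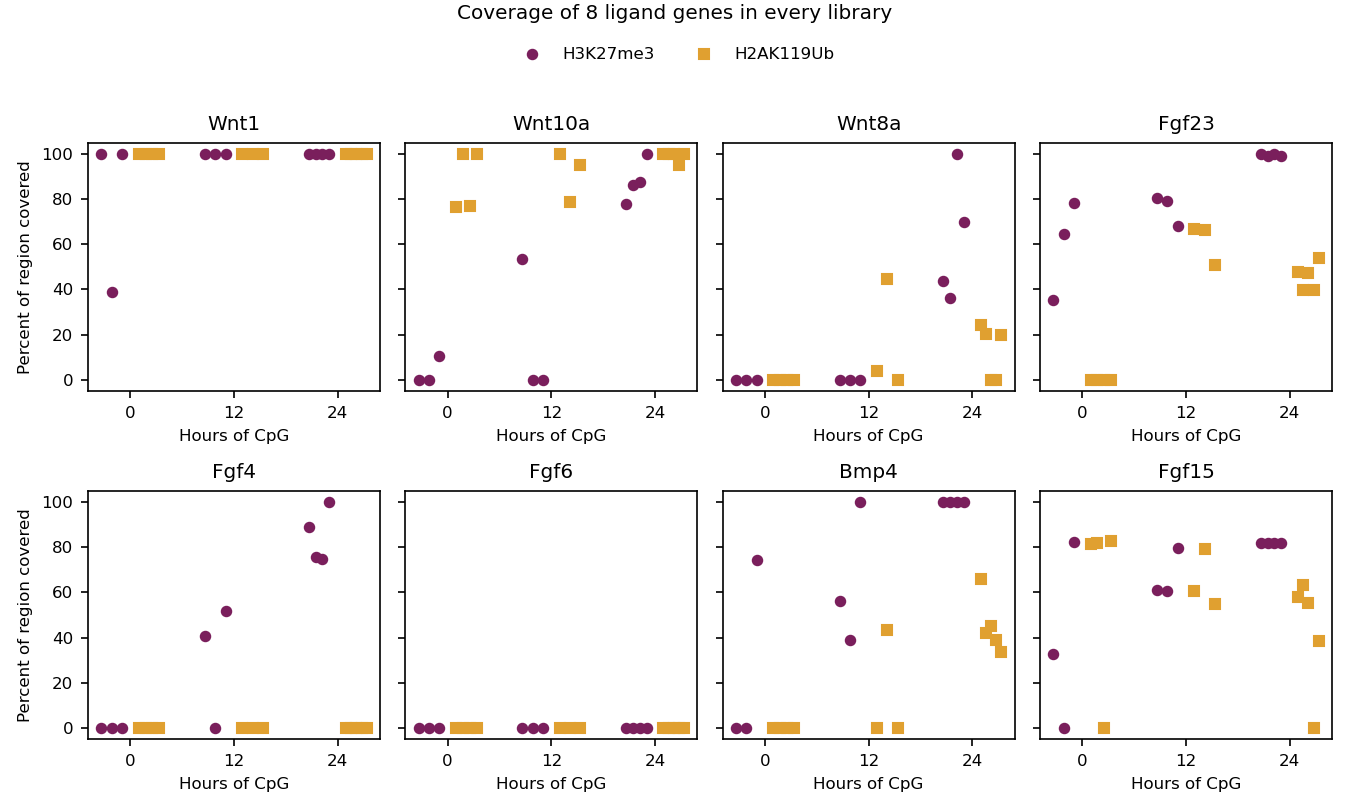
Percent of region under H3K27me3 and H2AK119Ub peaks (vertical axes) in every library at 0, 12 and 24 h (horizontal axes) for Wnt1, Wnt10a, Wnt8a, Fgf23, Fgf4, Fgf6, Bmp4 and Fgf15, with 1 point per library, round for H3K27me3 and square for H2AK119Ub. Fgf4 and Bmp4 go from 0% in most 0 h libraries to 74.8% or more of H3K27me3 at 24 h, in lists that grew as well, Wnt1 is at 100% of H2AK119Ub in all 12 libraries, and Fgf6 stays at 0%.

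Of the 22 H3K27me3 calls, 10 stood without any 1 of the 10 libraries: Wnt4, Wnt6, Wnt8a, Wnt9b, Wnt10a, Fgf2, Fgf4, Fgf18, Bmp3 and Bmp8a. The other 12 were lost without at least 1 library. The highest adjusted p among these was 0.149 for Wnt9a, 0.122 for Wnt3, 0.0948 for Bmp4, 0.0706 for Fgf3, 0.0596 for Fgf7 and 0.0554 for Fgf1, each without replicate 1 at 0 h. It was 0.130 for Bmp2, 0.0801 for Wnt5b, 0.0620 for Fgf9, 0.0578 for Bmp8b and 0.0573 for Fgf12 without replicate 2 at 0 h, and 0.0554 for Fgf23 without replicate 1 at 24 h. Leaving out replicates 1 or 2 at 0 h left 12 and 11 calls and leaving out replicate 4 at 24 h left 13. Without replicate 3 at 0 h, the library of high coverage, 32 members passed.

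H2AK119Ub covered fewer members than H3K27me3, and its mean at 12 h was already near that at 24 h. Members averaged 8.42% to 13.1% at 0 h, 21.1% to 28.0% at 12 h and 19.3% to 31.6% at 24 h, with means of 10.1% ± 2.06, 24.4% ± 3.47 and 24.8% ± 5.09 (SD, n = 4, 3 and 5). Neither later group overlapped the 0 h libraries, and the 2 later groups overlapped each other. All protein-coding autosomal genes averaged 3.08%, 10.2% and 12.9%. Relative to autosomal coverage, the member mean was 6.57 ± 0.817, 4.77 ± 0.453 and 5.16 ± 1.70 times. The families differed in level, with Wnt genes at 20.2% and 34.1% at 0 and 24 h, Fgf genes at 5.53% and 20.0% and Bmp genes at 0.130% and 16.8%. As ratios to the autosomes these were 13.5 and 7.13 for Wnt genes, 3.26 and 4.06 for Fgf genes and 0.0546 and 3.61 for Bmp genes, so the Wnt ratio went down and the others up. Peaks were present in every library in 7 members at 0 h (14.3%, against 5.51% of protein-coding autosomal genes), 22 at 12 h and 24 at 24 h (49%, against 22%).

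**Figure D3:**
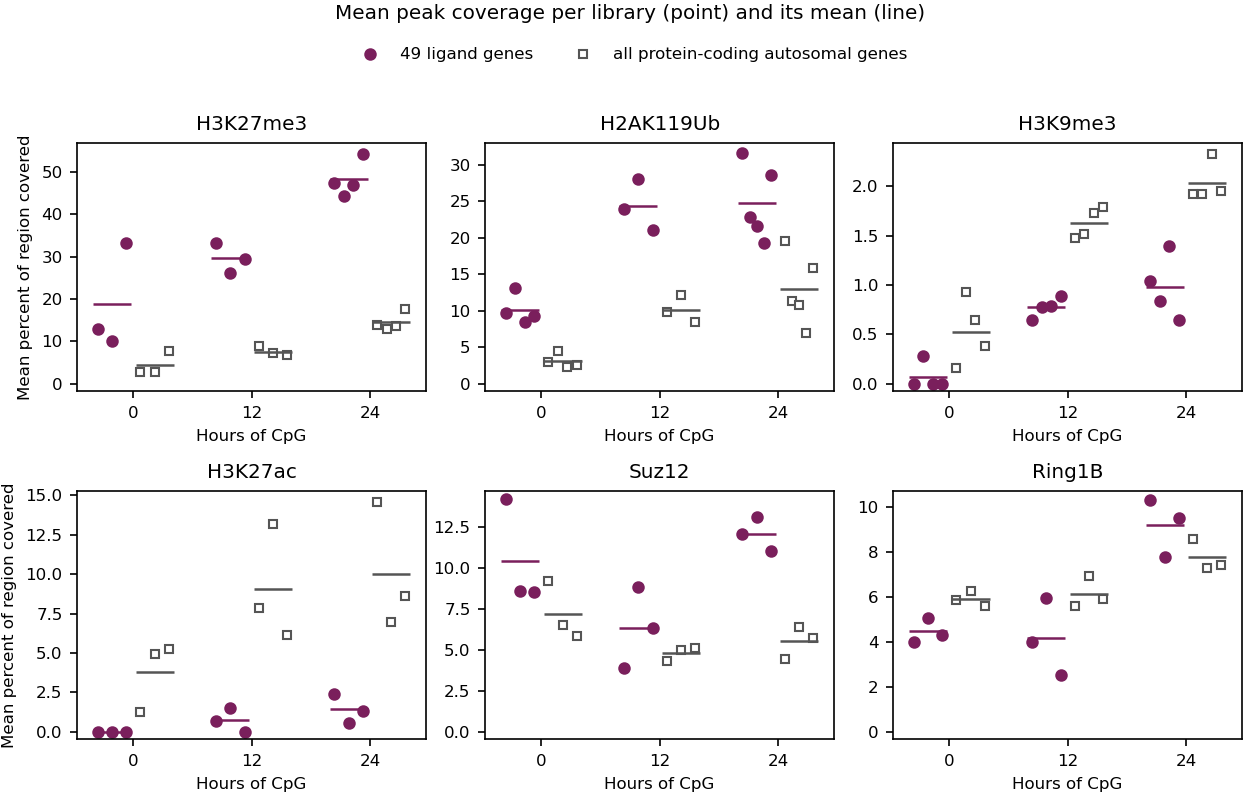
Mean percent of region covered over the 49 members (vertical axes) in each library at 0, 12 and 24 h (horizontal axes) for the 6 antibodies, with points as libraries, lines as their means and open squares for all protein-coding autosomal genes. H3K27me3 is at 48.2% at 24 h, although its ratio to autosomal coverage is lower then than at 0 h, H2AK119Ub is at 24.4% by 12 h and 24.8% at 24 h, and H3K27ac and H3K9me3 stay below the mean of protein-coding autosomal genes.

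Of 29 members tested for H2AK119Ub, 16 rose, none fell and 13 did not pass, against 31% of 13845 genes that rose and 0.296% that fell. They were 5 of 14 Wnt, 7 of 10 Fgf and 4 of 5 Bmp genes. The median difference was 25.3 percentage points, against 18 in all genes tested, and 26 of 29 differences were positive (92.9% in all genes). In 16 of 49 members every 24 h library lay above every 0 h library, against 13.6% of protein-coding autosomal genes. After scaling, 12 members were higher, 11 of them among the 16, and 4 were lower (28.8% and 7.55% of all genes). The 4 were Wnt1, Wnt10a, Wnt10b and Wnt16. Wnt1 was at 100% in all 12 libraries, so its scaled value falls by construction as the lists grow. With lists of equal length, 7 members passed, of which 4 were higher and 2, Wnt16 and Fgf15, lower at 24 h. The share of all genes that passed with such lists was not counted, so this number cannot be set against a background.

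Wnt6 had the largest H2AK119Ub difference among Wnt genes that rose. It was at 10.8%, 10.9%, 18.7% and 11% at 0 h, 56.3%, 51.4% and 53.0% at 12 h and 84.4%, 55.5%, 67.6%, 58.9% and 75.0% at 24 h (55.4 ± 7.49, SE, limma adjusted p = 0.00103). Its neighbour Wnt10a was already at 76.6% to 100% at 0 h and was at 95.2% to 100% at 24 h (limma adjusted p = 0.401). Wnt10b, a bone and fat ligand 11.7 kb from Wnt1 on chromosome 15, was at 79.1%, 79.0%, 79.6% and 36.9% at 0 h and at 69.8% to 100% at 24 h (limma adjusted p = 0.131). The region of Wnt1, chr15:98787857-98795830, was wholly under H2AK119Ub in every library and wholly under H3K27me3 in every library at 12 and 24 h. Wnt11, a ligand of kidney and heart, was at 19% to 36% at 0 h and at 43.7% to 60.2% at 24 h (24.5 ± 9.25, limma adjusted p = 0.0370), a difference that was negative after scaling. Wnt9b and Wnt3 were at 0% in all 4 libraries at 0 h and rose by 30.5 ± 9.39 and 29 ± 6.76 (limma adjusted p = 0.0250 and 0.0155), and Wnt9a rose by 12.6 ± 3.44 (limma adjusted p = 0.0221). Wnt9a, which is counted among the 16, among the 11 and among those called for both marks, had H2AK119Ub peaks at 24 h alone and so entered the test only through that group. Wnt16, a bone ligand, had a negative difference. It was at 67.0%, 59.9%, 83.7% and 67.5% at 0 h and at 42.3%, 42.5%, 62.6%, 25.9% and 39.8% at 24 h (-26.9 ± 9.70, limma adjusted p = 0.103), and it passed after scaling (limma adjusted p = 0.00606).

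Among Fgf genes, the 3 largest H2AK119Ub differences were those of Fgf21, Fgf8 and Fgf23. Fgf21 was at 0% in 4 libraries at 0 h, at 7.95%, 35.1% and 100% at 12 h and at 100%, 39.6%, 39.8%, 61.6% and 100% at 24 h (68.2 ± 18.7, SE, limma adjusted p = 0.0381). Fgf8 was at 17.2%, 64.9%, 0% and 15.9% at 0 h, 76.8% to 84.1% at 12 h and 75.2%, 76.9%, 72.5%, 52.8% and 80.1% at 24 h (47.0 ± 12.0, limma adjusted p = 0.0148), so its groups at 0 and 24 h overlapped. Fgf23 was at 0% at 0 h, 66.7%, 66.3% and 50.6% at 12 h and 47.6%, 39.7%, 47.1%, 39.5% and 54.1% at 24 h (45.6 ± 6.54, limma adjusted p = 0.000338). Its 12 and 24 h ranges overlapped, and in all 5 libraries at 24 h a stretch of 4.16 kb at chr6:127078942-127083099 was covered.

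Fgf20 was at 0% at 0 h and at 49.7%, 79.9% and 54.3% at 12 h. At 24 h it was at 53.7%, 59.0%, 35.8%, 37.0% and 0%, so 1 library equalled the 0 h level (37.1 ± 11.5, SE, limma adjusted p = 0.0124). Fgf17, Fgf1 and Fgf2 rose by 36.7 ± 12.2, 27.2 ± 7.31 and 11.8 ± 4.03 (limma adjusted p = 0.0386, 0.0310 and 0.0177). Fgf15 was the Fgf gene most covered at 0 h, at 81.4%, 81.8%, 0% and 82.7%, and was at 57.9%, 63.4%, 55.4%, 0% and 38.3% at 24 h. Its spread within each time exceeded the difference between them (-18.5 ± 18.6, limma adjusted p = 0.536). Fgf3, Fgf4, Fgf6, Fgf10, Fgf12, Fgf14, Fgf18 and Fgf22 had no H2AK119Ub peak in any library.

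The secreted Bmp genes had no H2AK119Ub peak at 0 h. Bmp4 was at 0%, 43.3% and 0% at 12 h and at 65.7%, 42.0%, 44.9%, 38.8% and 33.6% at 24 h (45.0 ± 9.71, SE, limma adjusted p = 0.0131). Bmp8b was at 16.0%, 36.6% and 16.8% at 12 h and 48.8%, 55.5%, 16.0%, 37.2% and 39.8% at 24 h (39.5 ± 8.24, limma adjusted p = 0.0125), and Bmp8a rose by 21.3 ± 6.08 (limma adjusted p = 0.0358). Bmp1 was at 0%, 5.19%, 0% and 0% at 0 h, 23.0%, 29.3% and 23.4% at 12 h and 13.7% to 22.3% at 24 h (16.7 ± 4.13, limma adjusted p = 0.00694). Bmp10, a heart ligand, was at 13.3% to 78.7% at 24 h and did not pass (limma adjusted p = 0.0595). Bmp2, Bmp3, Bmp5 and Bmp6 had no peak. Of the 16 calls, 7 stood without any 1 of the 12 libraries, those of Wnt3, Wnt6, Fgf20, Fgf23, Bmp1, Bmp4 and Bmp8b. Leaving out replicate 1, 3 or 4 at 0 h left 7 calls each. The highest adjusted p was 0.114 for Wnt11, 0.0891 for Fgf1, 0.0710 for Wnt9b and 0.0586 for Fgf2 without replicate 1 at 0 h. It was 0.0962 for Fgf17 and 0.0926 for Fgf21 without replicate 3, and 0.0960 for Bmp8a, 0.0525 for Wnt9a and 0.0519 for Fgf8 without replicate 4 at that time.

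The 2 Polycomb marks were called together at some members and apart at others. Both rose in 10 members (20.4% of 49, against 4.51% of protein-coding autosomal genes), namely Wnt3, Wnt6, Wnt9a, Wnt9b, Fgf1, Fgf2, Fgf23, Bmp4, Bmp8a and Bmp8b. H3K27me3 rose in 8 members (16.3%, against 5.44%) that had too few H2AK119Ub peaks to be tested, namely Wnt4, Fgf3, Fgf4, Fgf7, Fgf12, Fgf18, Bmp2 and Bmp3. H2AK119Ub rose in 6 members (12.2%, against 9.17%) in which H3K27me3 did not pass, namely Wnt11, Fgf8, Fgf17, Fgf20, Fgf21 and Bmp1, and no test compared the marks. At 0 h, 4 members had both marks in every library (Wnt1, Wnt11, Wnt16 and Fgf9), and at 24 h there were 22, which is 8.16% and 44.9% of members against 2.84% and 14.8% of genes. H3K27me3 in every library with no H2AK119Ub in any was seen at 0 h in 6 members (12.2%, against 2.49%), Wnt3a, Fgf5, Fgf17, Fgf20, Fgf23 and Bmp8b. At 24 h this was so in 7 others (14.3%, against 5.01%), Wnt4, Wnt5a, Fgf4, Fgf12, Fgf18, Bmp2 and Bmp3. The reverse held at 0 h for Wnt6, Wnt10a and Wnt10b, which had H2AK119Ub in every library but H3K27me3 in only 1 or 2 of 3.

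**Figure D4:**
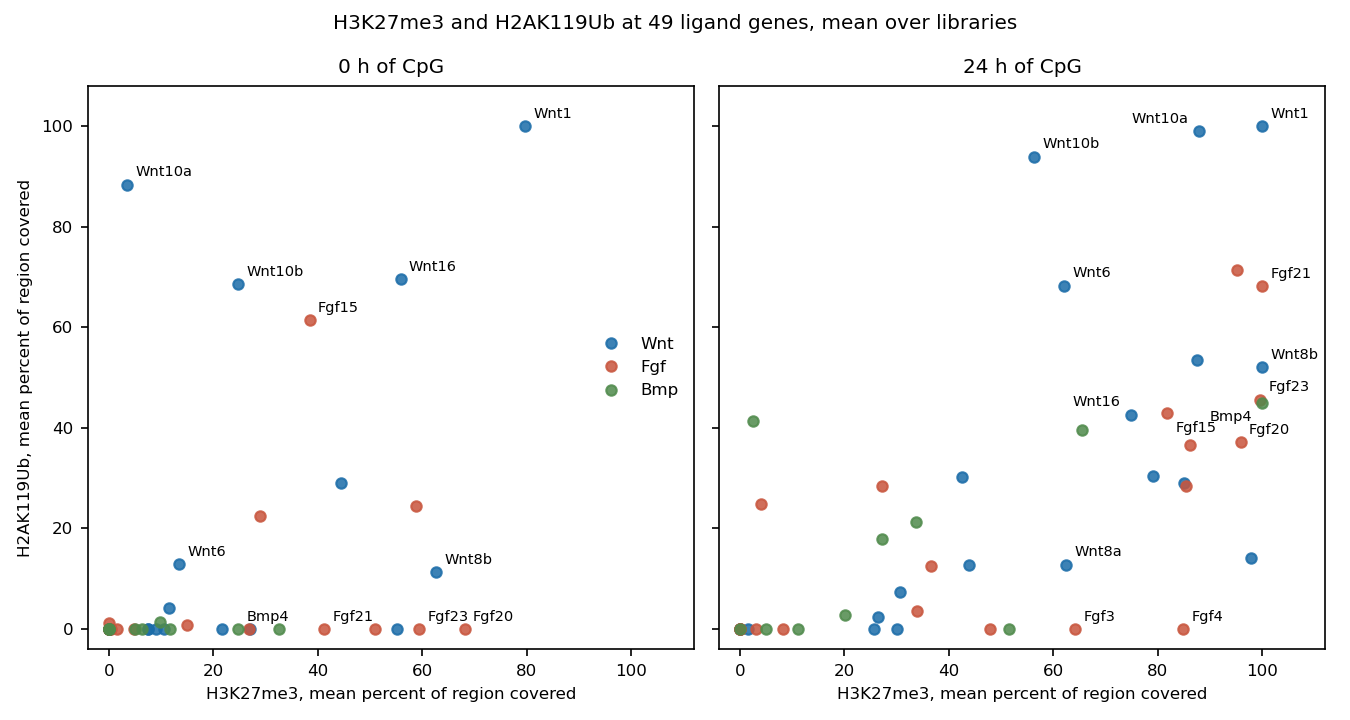
Mean percent of region under H3K27me3 (horizontal axis) and H2AK119Ub (vertical axis) for each of the 49 members at 0 and 24 h, with 1 point per gene. At 0 h Wnt10a lies near the top left with 3.55% of H3K27me3 and 88.4% of H2AK119Ub, and at 24 h Fgf4 lies at the lower right with 84.9% of H3K27me3 and 0% of H2AK119Ub.

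Bases covered in at least 2 libraries of a mark were compared between marks. H3K27me3 covered 171 kb of the member regions at 0 h, 361 kb at 12 h and 667 kb at 24 h, and H2AK119Ub 74.0, 287 and 338 kb. Of the H3K27me3 bases, 21.1%, 48.2% and 42.2% were also under H2AK119Ub. Of the H2AK119Ub bases, 48.5%, 60.8% and 83.2% were also under H3K27me3. With bases covered in all libraries instead, the first share was 21.8% at 24 h and the second 23.2% at 0 h. The share of H2AK119Ub that lay inside H3K27me3 was thus highest at 24 h, when H3K27me3 also covered most bases. Suz12 bases lay under H3K27me3 to 45.7%, 81.6% and 95.1%, and Ring1B bases under H2AK119Ub to 62.7%, 67.5% and 93.0%.

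Around 36 gene starts of members with a promoter entry, H3K27me3 formed broad domains. The bin of 500 bases with most coverage had 29.3% ± 20.4, 51.4% ± 6.30 and 70.1% ± 2.66 over the 3 times (SD over libraries, n = 3, 3 and 4). The same bins over all protein-coding autosomal genes had 8.08%, 13.8% and 21.4%. From 19 to 20 kb away from the start, members were at 7.94%, 18.8% and 32.5%. H2AK119Ub peaked at 13.2%, 31.7% and 40.6%, against 6.29%, 13.0% and 23.5% over all genes in the same bins. Suz12 was narrower and highest 0.5 to 1 kb after the start at all 3 times, at 26.8%, 19.2% and 42.4%, where all genes had 21.1%, 10.4% and 14.9%. Ring1B reached 12.6%, 8.61% and 21.1%, against 10.3%, 4.26% and 23.4% over all genes in the same bins. Each bin was the one highest in members at that time, so these comparisons favour members and are a description only. At 12 h the H2AK119Ub bin lay 3.5 to 4 kb after the start. The Ring1B bin at 12 h lay 5 to 5.5 kb after it, where all genes were near their outer level of 4.39%. The median peak over a member was 12.3 kb long for H3K27me3 at 24 h, 6.67 kb for H2AK119Ub, 2.09 kb for Suz12 and 2.54 kb for Ring1B.

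**Figure D5:**
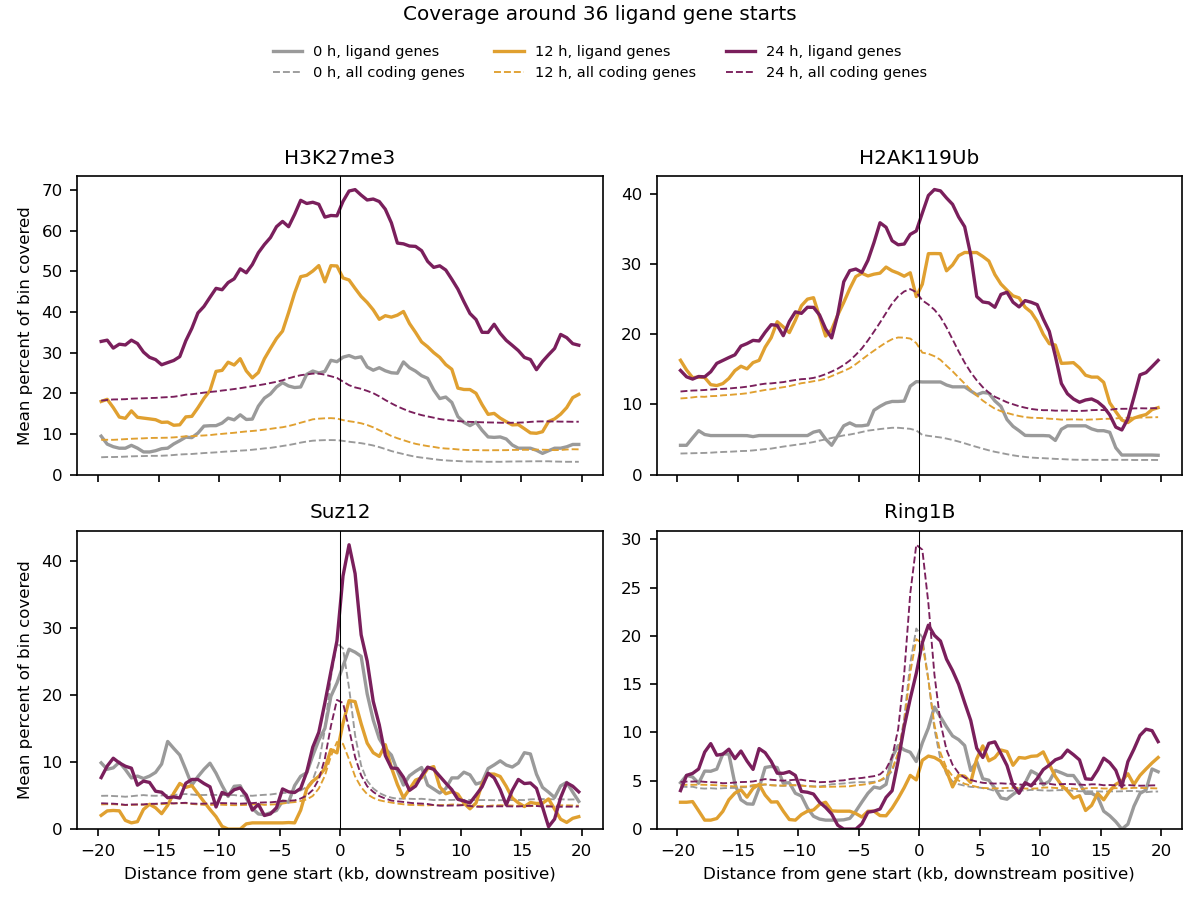
Mean percent of bins of 500 bases under peaks (vertical axes) against distance from the gene start in kb (horizontal axes) for H3K27me3, H2AK119Ub, Suz12 and Ring1B at 0, 12 and 24 h, over 36 member starts (solid lines) and all protein-coding autosomal genes (dashed lines). H3K27me3 over members reaches 70.1% near the start at 24 h and is still at 32.5% at the outer edge, while Suz12 peaks at 42.4% and drops to 7.26% there.

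Suz12 lists are cut at a set top share of the signal, so a change in them is a change in rank among blocks. Member means over 0, 12 and 24 h were 10.4% ± 3.25, 6.35% ± 2.46 and 12.1% ± 1.04 (SD, n = 3 each), and those of protein-coding autosomal genes 7.2%, 4.82% and 5.52%. Of 34 members tested, none passed in limma, as none of the 18049 genes did (0%), and 5 had an unadjusted p under 0.05. How many of all genes had such a p was not counted, so the 5 cannot be set against a background. After scaling no member passed, against 0.00554% of genes. The median difference of 24 from 0 h was 1.2 percentage points in members and -1.22 in all genes tested. Every 24 h library lay above every 0 h library in 5 members, Wnt9a, Fgf5, Fgf20, Bmp4 and Bmp7, against 1.86% of protein-coding autosomal genes. The 6 members with the smallest p took different courses. Wnt10a was at 34.5%, 29.6% and 16.6% at 0 h, 0% in all 3 libraries at 12 h and 28.7%, 23.7% and 22.5% at 24 h (limma adjusted p = 0.274). Wnt1 was at 99.8%, 86.6% and 85.4% at 0 h, 50.7%, 52.7% and 29.5% at 12 h and 77.7%, 54.5% and 87.7% at 24 h (limma adjusted p = 0.274). In both the 12 h libraries were the low ones. Fgf20 was at 20.2%, 14.8% and 19.3% at 0 h, 21.3% to 23.4% at 12 h and 56.6%, 40.4% and 37.3% at 24 h (limma adjusted p = 0.458). Wnt9a was at 0% at 0 h and 10.5%, 20.5% and 5.04% at 24 h (limma adjusted p = 0.412), and Bmp10 was at 0% at 0 h, 15.0% to 20.0% at 12 h and 0% to 13.7% at 24 h (limma adjusted p = 0.307). Bmp7, a kidney and eye ligand, was at 0% to 2.62% at 0 h, 3.07% to 5.46% at 12 h and 5.15%, 9.73% and 16.8% at 24 h (limma adjusted p = 0.631). Fgf15 had its 24 h libraries, at 13.7% to 16.1%, below those at 0 h, at 26.0% to 50.2% (limma adjusted p = 0.643).

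Ring1B, the catalytic subunit behind H2AK119Ub, covered 4.46% ± 0.551, 4.16% ± 1.71 and 9.19% ± 1.29 of members over the 3 times (SD, n = 3 each), where protein-coding autosomal genes had 5.89%, 6.12% and 7.74%. The 24 h libraries (7.78% to 10.3%) lay above the others. No member of 25 tested passed in limma, against 0.085% of 17641 genes (0.0794% higher and 0.00567% lower), and 7 had an unadjusted p under 0.05. The share of all genes with such a p was not counted, so the 7 cannot be set against a background. Fgf21 came closest, at 0% in all 6 libraries of 0 and 12 h and at 31.3%, 32.0% and 22.8% at 24 h (28.7 ± 4.59, SE, limma adjusted p = 0.0541), and after scaling it passed (limma adjusted p = 0.0449), where 0.408% of genes did (0.323% higher and 0.0737% lower). All its peaks lay at 24 h, so Fgf21 entered the Ring1B test only through the group in which it was high. The next were Wnt genes of the same neighbourhoods as above. Wnt10a was at 0%, 22.6% and 27.3% at 0 h, 29.4%, 44.0% and 21.0% at 12 h and 57.9%, 59.7% and 76.7% at 24 h (limma adjusted p = 0.238). Wnt1 was at 0%, 55.0% and 39.6% at 0 h and 94.2%, 60.6% and 78.6% at 24 h (limma adjusted p = 0.251). Wnt10b was at 25.4%, 16.4% and 44.8% at 0 h and 50.6%, 62.4% and 76.3% at 24 h (limma adjusted p = 0.390). In all 3 the groups at 0 and 24 h did not overlap, as in 6 of the 49 members and 7.97% of protein-coding autosomal genes. Wnt6 was at 0% to 7.47% at 0 h, 0% at 12 h and 5.44% to 18.7% at 24 h (limma adjusted p = 0.468), and Wnt9b at 3.68% to 6.17%, 0% and 0% to 4.8% (limma adjusted p = 0.536). Wnt16 was at 22.9% to 28.3% at 0 h, 0% at 12 h and 39.0%, 17.7% and 0% at 24 h (limma adjusted p = 0.553). All 4 Polycomb features were present in every 24 h library in 9 members, Wnt1, Wnt5b, Wnt6, Wnt10a, Wnt10b, Wnt11, Fgf2, Fgf9 and Bmp8a. The share of all genes with all 4 was not counted. Ring1B alone was in every 24 h library in 24.5% of members, against 36.4% of protein-coding autosomal genes. H3K27me3, H2AK119Ub and Suz12 were each more common in members than in those genes.

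H3K9me3 was found at few members, as at few genes. At 24 h 3 members had it in every library (6.12%, against 4.18% of protein-coding autosomal genes). The sample titles spell this antibody H3K29me3 and the antibody field H3K9me3, and the field was followed. All 3 members tested rose and none of the 12 libraries decided a call, against 51.4% of 2332 genes tested that rose. In these 3 every 24 h library lay above every 0 h library, which 3.02% of protein-coding autosomal genes showed. Fgf10, a ligand of lung and limb buds, was at 0%, 12.4%, 0% and 0% at 0 h, 27%, 31.1%, 30.2% and 34.2% at 12 h and 39.2%, 32.6%, 37.8% and 16.0% at 24 h (28.3 ± 5.53, SE, limma adjusted p = 0.00302). Fgf12 was at 0% at 0 h, 3.07% to 6.10% at 12 h and 9.01%, 4.88%, 15.5% and 12.7% at 24 h (10.5 ± 2.02, limma adjusted p = 0.00542). Fgf14 was at 0% to 1.22% at 0 h and 2.66% to 5.20% at 24 h (3.29 ± 0.768, limma adjusted p = 0.0122). All 3 also passed after scaling, where 31.5% of all genes were higher and 1.03% lower. Fgf10 and Fgf14 had no H3K27me3, and no base in the member regions lay under both H3K9me3 and H3K27me3 in at least 2 libraries of each at 12 or 24 h. Bmp3 had H3K9me3 in 1 library at 24 h (10.1%), and the other 45 members had none.

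No member had an H3K27ac peak at 0 h. At 24 h they averaged 1.42% ± 0.938 (SD, n = 3), against 10.0% for protein-coding autosomal genes, and 43 members had no peak in any of the 9 libraries. Only Wnt10a and Fgf1 had peaks in 3 libraries and were tested. Neither passed in limma nor had an unadjusted p under 0.05, against 1.46% of 9342 genes that passed. In no member did every 24 h library lie above every 0 h library, against 11.4% of protein-coding autosomal genes. Wnt10a was at 0%, 44.9% and 0% at 12 h and 72.8%, 26.8% and 0% at 24 h (limma adjusted p = 0.435), and Fgf1 was at 5.68%, 8.19% and 0% at 12 h and 0%, 0% and 4.05% at 24 h (limma adjusted p = 0.375). Wnt10b was at 27.9%, 0% and 59.9% at 24 h, and Wnt5b, Wnt6 and Bmp10 had peaks in 1 or 2 libraries. The 7.44 kb of member regions with H3K27ac in at least 2 libraries at 24 h lay wholly under H2AK119Ub and to 79.2% under H3K27me3. Fgf6, Fgf22, Bmp6 and Wnt7b had no peak of any of the 6 antibodies.

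Other genes of the 3 pathways were read from lists of receptors, inhibitors and intracellular parts. Before scaling, none of them was lower at 24 h in H3K27me3 or H2AK119Ub. After scaling, genes were called in both directions. Some were lower in H2AK119Ub, in the Wnt lists, the Fgf feedback inhibitors and the Bmp receptors and intracellular genes. In H3K27me3 only the Wnt receptors held a gene that was lower. The counts of rises that follow are unscaled. H3K27me3 rose in 6 of 14 Wnt receptors tested (of 18 listed), among them Fzd2, from 22.1% to 96.3% (SE of the difference 13.6, limma adjusted p = 0.00579). It rose in 2 of 8 secreted Wnt inhibitors, with Sfrp4 going from 30.2% to 100% (SE 13.6, limma adjusted p = 0.00746), and in 4 of 7 intracellular Wnt genes, with the feedback inhibitor Axin2 going from 0% to 21.5% (SE 3.63, limma adjusted p = 0.00347). On the Fgf side it rose in 3 of 5 receptors and coreceptors, with Fgfr2 going from 0% to 13.7% (SE 2.27, limma adjusted p = 0.00287), and in 2 of 4 feedback inhibitors, with Spry4 going from 0% to 45.1% (SE 6.17, limma adjusted p = 0.000637) but entering the test through its 24 h peaks alone. On the Bmp side it rose in 5 of 7 receptors, 4 of 6 secreted inhibitors and 3 of 6 intracellular genes. Bmpr1a went from 21.1% to 76.0% (SE 8.28, limma adjusted p = 0.00225), and the antagonist Nog from 52.8% to 98.5% (SE 11.8, limma adjusted p = 0.0267). After scaling Fgfr2 and Spry4 passed (limma adjusted p = 0.00621 and 0.00185). None of Fzd2, Sfrp4, Axin2, Bmpr1a and Nog did (limma adjusted p = 0.551, 0.337, 0.0811, 0.584 and 0.171), and the difference turned negative for Sfrp4, Bmpr1a and Nog. H2AK119Ub rose in 3 of 13 Wnt receptors, 2 of 5 secreted Wnt inhibitors, 1 of 3 Fgf receptors, none of 5 Bmp receptors and 5 of 7 secreted Bmp inhibitors. Notum, which removes the lipid from Wnts, went from 0% to 98.6% (SE 7.87, limma adjusted p = 2.72e-05), and the Bmp antagonist Chrd from 0% to 56.6% (SE 8.62, limma adjusted p = 0.00175), and both also passed after scaling (limma adjusted p = 0.0157 and 0.0183). Ligands, receptors and inhibitors thus held shares of rising genes on both sides of the 56.5% and 31% over all genes tested.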

How the data were processed

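CUT&RUN libraries of 6 antibodies at 0, 12 and 24 h were read from 61 peak lists, 1 per sample, in which the deposited values are peak positions and a signal (summed and highest coverage per peak). Per the submitters' processing notes, the authors used Trimmomatic 0.32, Bowtie2 2.3.4.1, Picard and deepTools 3.5.1 with the mm10 build. Per the file names, peaks were called with SEACR on the Cast allele, with its norm relaxed setting for histone marks and a stringent top share of 0.01 for Suz12 and Ring1B. The SEACR version and the rule that split reads by allele were not given in the sources used here, and lists hold no read depth. Peaks on Cast alone say nothing of the C57BL/6 allele.

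Peaks of a list were merged, and the percent of each region (gene ± 2 kb, RefSeq, GRCm38.p6) under them was computed. Genes with a peak in at least 3 libraries of an antibody were tested with limma 3.58.1 (R 4.3.3, trend and robust, moderated F over 3 times), with Benjamini-Hochberg adjustment over all genes tested. A gene was called higher or lower where adjusted p was under 0.05 and the contrast of 24 with 0 h had p under 0.05. The p-values measure the spread between labelled replicates. Tables and figures were made with pandas 2.3.3, numpy 2.4.6 and matplotlib 3.10.9 in Python 3.11.15, and the fit was tested on simulated data. Replicate numbers were not used to pair samples in the main fit. Alternatives were scaling by autosomal coverage, lists of equal length, stricter peaks, other filters, regions and scales, a replicate block and leaving out each library.

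Members and lists were chosen with earlier results of these data known. Named members were, for each antibody and direction, up to 12 called members with the largest difference, those with H3K27ac in at least 3 libraries, the member of each family most covered at 0 h by H3K27me3, H2AK119Ub or H3K9me3, up to 6 with the smallest p for Suz12 and Ring1B, and, as a group, those with no peak. For pathway lists up to 3 called genes were eligible. The other members named were chosen after their values were seen. Background shares are of all genes tested, or of protein-coding autosomal genes where groups did not overlap.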

Additional observations from a re-analysis of the deposited data

Results flagged for a closer look

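Among 47 groups of 4 or more libraries, 9 had 1 library far from the rest by Dixon's test. For continuous values chance does this in about 1 in 20 groups. Several of the 9 groups held 0% in all other libraries, where any single value above 0 is flagged. The 9 therefore cannot be set against that rate. In H2AK119Ub at 0 h, Fgf15 was at 0% in replicate 3 and at 81.4% to 82.7% in the other libraries, and Wnt6 was at 18.7% in replicate 3 against 10.8% to 11%. Fgf1 was at 4.78% in replicate 4 and Bmp1 at 5.19% in replicate 2, where the other libraries were at 0%. At 24 h Fgf8 was at 52.8% in replicate 4, the H2AK119Ub library with least autosomal coverage, against 72.5% to 80.1%. In H3K27me3 at 24 h, Bmp2 was at 47.5% in replicate 2 against 52.6% to 52.8%.

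In H3K9me3 at 0 h, replicate 2 was the only library with coverage of members, at a mean of 0.278%. It held 12.4% of Fgf10 and 1.22% of Fgf14, and the other 3 libraries held 0% of both.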

How the results depend on the processing

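Under most settings the members' differences kept their direction, and counts of calls moved. As reported, 22 members and 37 pathway genes changed in H3K27me3, 16 and 28 in H2AK119Ub, 3 and 4 in H3K9me3, 0 and 1 in H3K27ac, and 0 members for Suz12 and Ring1B. Dividing by autosomal coverage gave 4 and 12 for H3K27me3, 0 pathway genes for H3K27ac and 1 member for Ring1B. For the member mean, the scaled difference (24 minus 0 h) was multiplied back by the mean autosomal percent of the antibody's libraries. It became -23.0 percentage points for H3K27me3 (29.5 unscaled), -5.75 for H2AK119Ub (14.7 unscaled), 0.602 for H3K9me3 (0.910 unscaled) and 4.21 for Suz12 (1.62 unscaled). Among the called members followed under every setting, dividing by autosomal coverage turned H3K27me3 of Wnt9b (-0.402), Fgf9 (-2.62), Fgf23 (-22.6) and Bmp8b (-12.2). It also turned H2AK119Ub of Wnt11 (-7.90). These values for single genes are differences of ratios, not percentage points. Lists of equal length gave 2 and 4 for H3K27me3, 7 and 3 for H2AK119Ub, 0 and 0 for H3K9me3, 0 pathway genes for H3K27ac and 1 member for Ring1B, with mean differences of 15.9, 2.85, 0.0513 and 0 for the 4 histone marks. Windows of 2 kb around the start gave 6 and 10 for H3K27me3, 8 and 16 for H2AK119Ub, 0 and 0 for H3K9me3 and 0 pathway genes for H3K27ac, with mean differences of 38.9, 24.1 and 0 for the first 3 and of 7.36 for Suz12 and 6.47 for Ring1B. Stricter peaks gave 9 members for H2AK119Ub, 1 pathway gene for H3K9me3, 0 for H3K27ac and 1 member for Ring1B, with mean differences of 0.512 for H3K9me3 and 0.00839 for H3K27ac. Counting a peak from 10% of the region gave 1 and 1 for H3K9me3 and 1 member for Ring1B. The arcsine scale gave 2 pathway genes for H3K27ac and 1 member each for Suz12 and Ring1B. H3K27ac had 6 pathway genes in a fit of 0 and 24 h alone and 0 without the filter or the flanks.

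The deviations of same-numbered libraries correlated by -0.290 to 0.159, with at most 1 pair per antibody above 0.1. The values were scaled and centred within small groups first, so this cannot decide whether equal numbers share an animal. A replicate block gave 10 and 22 for H3K27me3, 7 and 14 for H2AK119Ub and 0 pathway genes for H3K27ac. The block with scaling gave 1 and 4 for H3K27me3, 9 members for H2AK119Ub and 0 pathway genes for H3K27ac. Among the called members followed under every setting, it turned Fgf9 (-2.04), Fgf23 (-21.7), Bmp8b (-11.7) and Wnt11 (-7.20), again as differences of ratios. The cause of these moves was not tested. Leaving out each library gave 11 to 32 members and 22 to 58 pathway genes for H3K27me3, 7 to 18 and 12 to 39 for H2AK119Ub, 3 to 3 and 2 to 4 for H3K9me3 and 0 to 0 and 0 to 4 for H3K27ac, with 0 to 0 members for Suz12 and Ring1B. The mean differences ranged over 25.2 to 36.8, 13.0 to 16.1, 0.771 to 1.02, 0.926 to 1.86, 0.670 to 3.49 and 4.17 to 5.43 in the order H3K27me3, H2AK119Ub, H3K9me3, H3K27ac, Suz12 and Ring1B. Taking bases of at least 1 library, the H3K27me3 share under H2AK119Ub was 24.1% at 0 h and 53.4% at 24 h and the reverse share 73.6% and 83.8%. Taking bases of all libraries, these were 17.7%, 21.8%, 23.2% and 81.2%. The lists give peaks and no depth, so a region without a peak may hold signal under the callers' thresholds.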

Other observations

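Ligands of other growth factor families were read in the same way. Of 24 listed, 17 were tested for H3K27me3, of which 8 rose, and 18 for H2AK119Ub, of which 7 rose, with none lower by either mark, where 56.5% and 31% of all genes tested rose. After scaling, 3 were higher and 2 lower for H3K27me3, and 5 higher and 1 lower for H2AK119Ub. Shh, the hedgehog ligand of limb and neural tube, went from 25.1% to 89.4% of H3K27me3 (SE of the difference 19.4, limma adjusted p = 0.0361, and 0.867 after scaling), and Lefty2, a Nodal antagonist, from 0% to 55.1% (SE 10.7, limma adjusted p = 0.00764, and 0.00772 after scaling). For H2AK119Ub, Inha, the inhibin alpha subunit, went from 0% to 92.0% (SE 14.5, limma adjusted p = 0.00287) and Gdf7, a relative of the Bmps, from 0% to 88.3% (SE 8.56, limma adjusted p = 0.000109). All 3 of Lefty2, Inha and Gdf7 had no or nearly no coverage at 0 h in the marks given.

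The other marks singled out a few pathway genes. The genes at which H3K9me3 rose included Dkk2, Kl and Bmpr1b, and Dkk2, a secreted Wnt inhibitor, went from 3.23% to 45.8% (SE 6.63, limma adjusted p = 0.00180). H3K27ac rose at Dkk4, another inhibitor of this family, from 0% to 49.8% (SE 10.7, limma adjusted p = 0.0449). H3K9me3 and H3K27ac thus rose at different members of 1 gene family, and the Dkk4 call was lost under most alternatives.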
